A study of Arabidopsis thaliana with 6 samples.

Results

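The genes described here lie in a segment of *Arabidopsis thaliana* chromosome 1 around *KLU* (AT1G13710), from locus AT1G12000 to locus AT1G13990. Members were taken by position, as every gene in this range that the array annotation names alone for a probe set. The brightest probe set was taken wherever a gene had several. AT1G12010, whose change was larger than that of any member, was left out. Members were chosen with earlier results of these data known, so their share of calls is not independent of those results. These rules gave 93 genes of 13264 measured on all chromosomes, each with a single probe set. The RefSeq gene table lists 211 protein-coding loci in the segment besides AT1G12010, of which 91 had a named probe set, and *KLU* itself was not analysed here.

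RNA came from inflorescences with young flower buds of 3 *tink/ibr5-6* plants and 3 wild-type plants of the accession Landsberg *erecta* (L*er*), with 1 plant and 1 Affymetrix ATH1 array per replicate. The parent of *tink/ibr5-6* was *klu-2*, a mutant of *KLU* in L*er*, which was mutagenised with EMS, and 3 crosses back to L*er* separated the new mutation from *klu-2*. This mutation is a G-to-A change in *IBR5* that replaces a cysteine of the active site. It is 1 allele of 1 line, both groups share the L*er* background, and the age of the plants is not given in the labels. Nothing in the labels says whether the 6 plants were grown or harvested together, so the p-values measure only the spread between these plants. Which alleles the *tink/ibr5-6* plants carry along the segment was not analysed here.

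*KLU* encodes a cytochrome P450 monooxygenase of the CYP78A family, which promotes organ growth by a signal that moves beyond the cells in which the gene is expressed. Plants without it make smaller leaves and petals, because cell proliferation stops early. *IBR5* encodes a dual-specificity phosphatase of auxin and abscisic acid responses and lies on another chromosome. Mutations induced in the same plant as *klu-2* are inherited together with the *klu-2* allele the more often the closer they lie to it. Crosses that remove *klu-2* therefore tend to remove close mutations along with it. The neighbourhood of *KLU* is described gene by gene because of this linkage, which was not tested here.

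Of the 93 genes of the segment, 7 were called different between genotypes, 51 others had a signal on some array and 35 stayed at the level of dim probe sets, where nothing can be said. A gene was called at an adjusted p under 0.05 (limma, Benjamini-Hochberg over all 22746 probe sets) with a log2 fold change of more than 1 in size, where a fold change is *tink/ibr5-6* minus L*er* on the log2 scale of the deposited values. AT1G13650, AT1G13810 and AT1G13930 were higher in *tink/ibr5-6*, and AT1G12070, AT1G12150, AT1G13130 and AT1G13970 were lower. The 7 called genes were 7.53% of the segment, beside 4.25% of all probe sets. The 3 higher genes were 3.23% of the segment beside 1.53% of all probe sets, and the 4 lower genes were 4.30% beside 2.71%. Fold changes in the segment ran from -4.43 to 3.59 on the log2 scale, and their median was 0.00. Without L*er* replicate 2 the count of called genes was 4, and without any 1 of the other arrays it was 5 to 6.

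**Figure D1:**
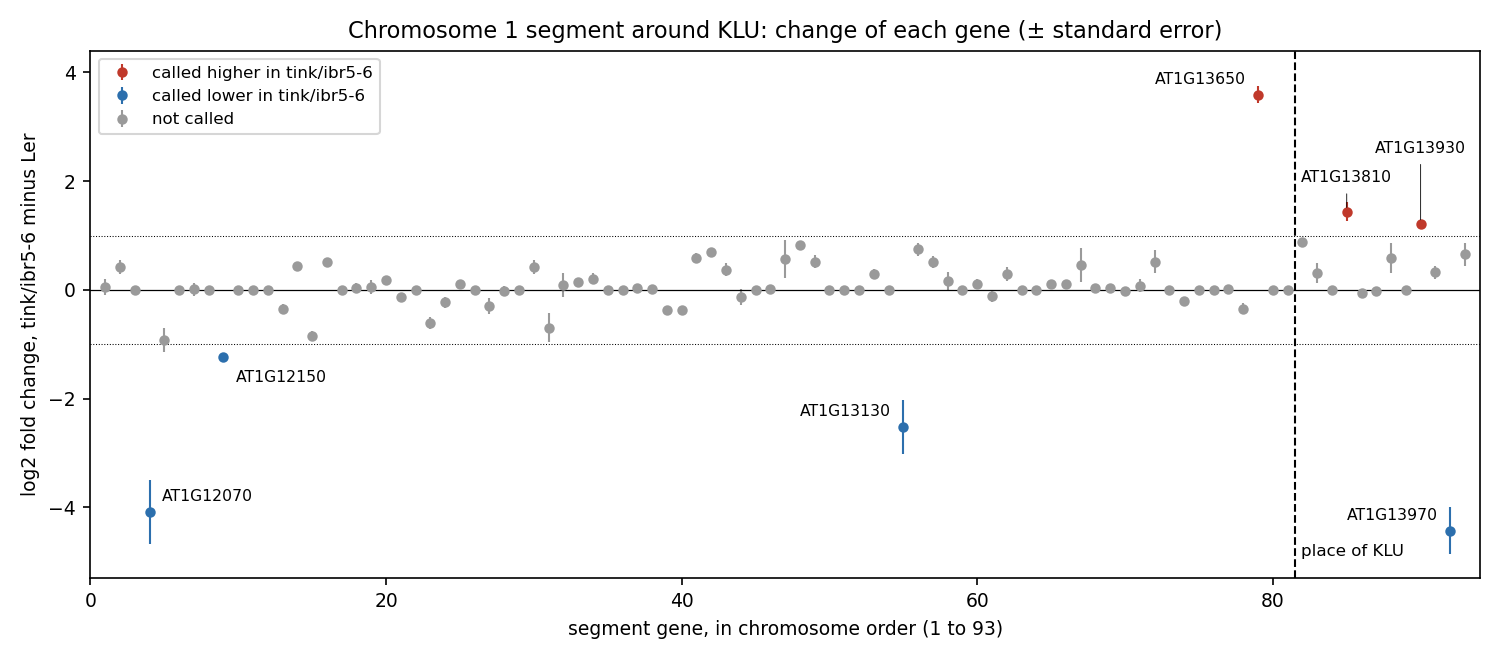
The log2 fold change (*tink/ibr5-6* minus L*er*) of each of the 93 genes with its standard error, in chromosome order, with called genes in colour, the fold limit of 1 dotted and the place of *KLU* dashed. The changes run from -4.43 for AT1G13970 to 3.59 for AT1G13650, and 3 of the 12 genes after *KLU* are called.

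The gene with the highest fold change of the segment was AT1G13650, described as similar to a gar2-related protein of 18S pre-ribosomal assembly. It had log2 values of 7.26, 7.14 and 6.94 in *tink/ibr5-6* and of 3.28, 3.75 and 3.53 in L*er*. The wild-type values stood near the lowest signals of the array, and no mutant array came near them. Its log2 fold change was 3.59 with a standard error of 0.16 (95% confidence interval 3.16 to 4.02, limma adjusted p = 0.0025), a 12.1-fold difference. In the RefSeq order 4 protein-coding genes lie between AT1G13650 and *KLU*.

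The other genes called higher lie on the far side of *KLU*. AT1G13810, a gene of unknown function, had log2 values of 7.03, 6.73 and 7.05 in *tink/ibr5-6* and of 5.31, 5.40 and 5.80 in L*er*. Its log2 fold change was 1.44 with a standard error of 0.17 (limma adjusted p = 0.0135). All of its mutant arrays stood above all of its wild-type arrays, but the call was lost without *tink/ibr5-6* replicate 1 and without L*er* replicate 2, with an adjusted p of up to 0.0554. AT1G13930, which encodes a nodulin-related protein, was among the brightest genes of the segment in both genotypes, with log2 values of 13.52, 13.75 and 13.56 in *tink/ibr5-6* and of 12.33, 12.47 and 12.39 in L*er*. The gap between its genotypes was larger than the range within either, and its log2 fold change was 1.21 with a standard error of 0.08 (95% confidence interval 1.01 to 1.42, limma adjusted p = 0.0045).

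The lowest fold change was that of AT1G13970, which encodes a protein with a domain of unknown function, DUF1336, and is the last gene but 1 of the segment. It had log2 values of 4.09, 3.0 and 2.80 in *tink/ibr5-6* and of 7.43, 8.17 and 7.57 in L*er*. Of the mutant plants, replicate 1 was clearly higher than the others, which lay near a log2 value of 3, and every wild-type value was far above all of them. Its log2 fold change was -4.43 with a standard error of 0.44 (limma adjusted p = 0.0093).

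AT1G12070 had log2 values of 4.80, 4.30 and 2.77 in *tink/ibr5-6* and of 7.85, 8.18 and 8.10 in L*er*. The mutant plants differed among themselves far more than the wild-type plants (SD 1.06 against 0.169, n = 3 each), but the highest mutant value stayed below every wild-type value. Its log2 fold change was -4.09 with a standard error of 0.59 (limma adjusted p = 0.0195). The call was lost in 4 of the 6 fits that left out a single array, without *tink/ibr5-6* replicate 2 or any 1 of the L*er* arrays, where the adjusted p lay at up to 0.0732 and the log2 fold change was between -4.26 and -4.02.

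AT1G13130 encodes a cellulase of glycosyl hydrolase family 5, a class of enzymes that cut polysaccharides of the cell wall. It had log2 values of 4.80, 4.09 and 3.80 in *tink/ibr5-6* and of 5.95, 6.88 and 7.40 in L*er*. Here the wild-type plants were spread widely (SD 0.734, against 0.515 in the mutants), and the nearest arrays of the 2 genotypes were about as far apart as arrays within a genotype. Its log2 fold change was -2.52 with a standard error of 0.49 (95% confidence interval -3.84 to -1.20, limma adjusted p = 0.0388). When single arrays were left out it was the least firm call of the segment. It held only without L*er* replicate 1, and in the other 5 fits that left out an array the adjusted p reached 0.125. The log2 fold changes were -2.92 to -2.19 over all 6. With all arrays kept and only probe sets of a mean of at least 4 fitted, its adjusted p was 0.0045 (limma).

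AT1G12150, whose product is related to the heavy chain of myosin, was dim throughout. It had a log2 value of 2.17 on each of the 3 *tink/ibr5-6* arrays, and of 3.40, 3.35 and 3.46 in L*er*. A log2 value of 3 was taken as the level under which gcrma holds probe sets near a floor. The difference is therefore only a bound, at least 1.32-fold lower in *tink/ibr5-6*. The fitted log2 fold change was -1.23 (limma adjusted p = 0.0012). This bound is under the fold limit, so the call rests on the fitted value. The 3 mutant values were equal (SD 0.0), so the spread between mutant plants was not measured.

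**Figure D2:**
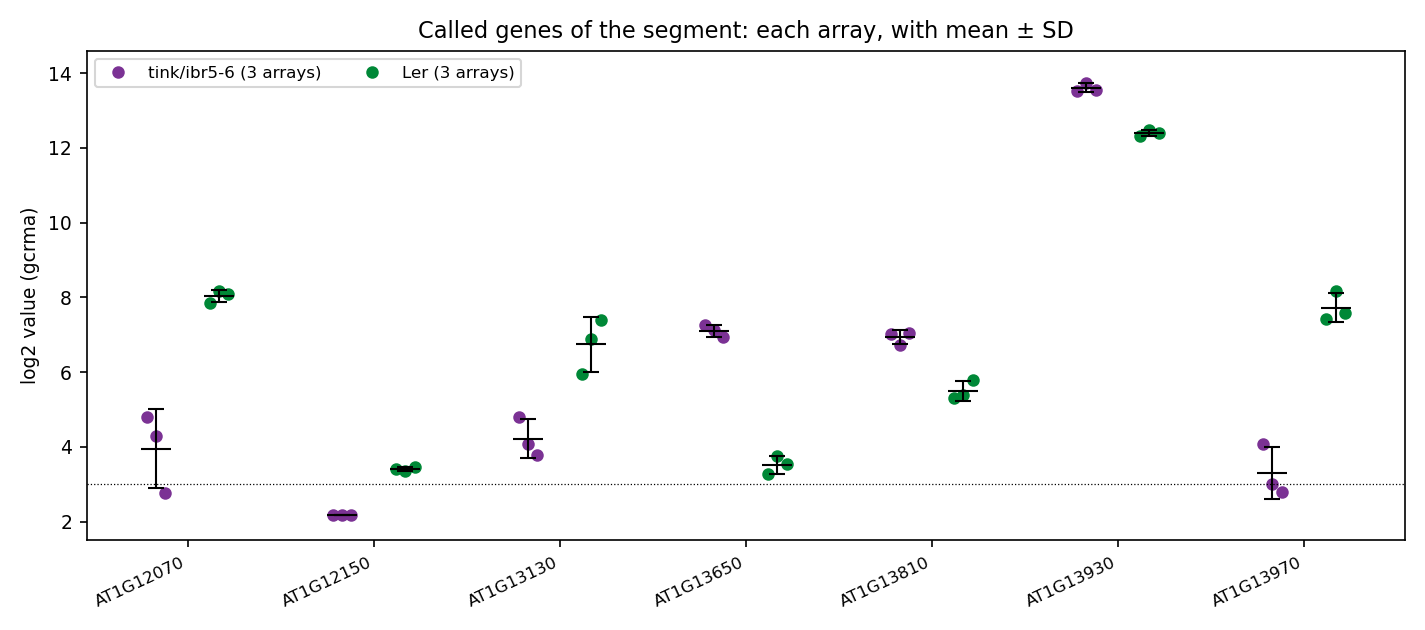
Log2 values of the 7 called genes on each array, *tink/ibr5-6* left of L*er*, with the mean and SD of 3 arrays and the dotted level of 3. AT1G13930 lies above 12 on all arrays, and the wild-type values of AT1G13130 are spread from 5.95 to 7.40.

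A further 11 genes of the segment passed the adjusted p but changed less than the fold limit, 7 of them higher by 0.44 to 0.88 and 4 of them lower, with log2 fold changes of -0.85 to -0.37. With the called genes, 18 genes or 19.4% of the segment passed the adjusted p alone (10 higher, 8 lower), beside 16.3% of all probe sets (9.6% higher, 6.65% lower). The most closely measured of these differences was that of AT1G13730, which encodes a nuclear transport factor 2 family protein with an RNA-binding domain. It had log2 values of 8.93, 8.89 and 8.91 in *tink/ibr5-6* and of 7.98, 8.01 and 8.10 in L*er*. The plants of a genotype were nearly alike, so that a log2 fold change of 0.88 came with a standard error of 0.04 (limma adjusted p = 0.0023).

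AT1G13000, a gene with a domain of unknown function, was higher by 0.83 on the log2 scale (limma adjusted p = 0.0084), with 6.22 to 6.34 in *tink/ibr5-6* and 5.33 to 5.56 in L*er*. AT1G13160, of the SDA1 family that in yeast acts in the making of the large ribosomal subunit, was higher by 0.74 (limma adjusted p = 0.0261). AT1G12845, of unknown function, was higher by 0.70 (limma adjusted p = 0.0121). With an array left out, AT1G13160 missed the adjusted p in 4 of 6 fits (up to 0.0914) and AT1G12845 without *tink/ibr5-6* replicate 2 (0.0505). Smaller increases were those of AT1G12830 with 0.59, of *Hop1* (AT1G12270), which passes client proteins from Hsp70 to Hsp90, with 0.51, and of AT1G12230, a transaldolase-like gene of sugar metabolism, with 0.44. Of these, *Hop1* passed in all 6 fits without an array, while AT1G12830 passed in 1 and AT1G12230 in 2.

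Genes that passed with a lower value included 2 whose proteins work in the chloroplast. AT1G12250, a pentapeptide repeat protein of the thylakoid lumen, had log2 values of 8.36, 8.21 and 8.43 in *tink/ibr5-6* and of 9.07, 9.32 and 9.14 in L*er*, without overlap (log2 fold change -0.85, limma adjusted p = 0.011). AT1G12800, a plastid protein with an S1 RNA-binding domain, changed by -0.37 (limma adjusted p = 0.0151). AT1G12450, of the SNARE-associated Golgi protein family, changed by -0.62 (limma adjusted p = 0.0312) and AT1G12810 by -0.38. Neither AT1G12450 nor AT1G12810 passed whichever array was left out (adjusted p of 0.0696 to 0.0955 and 0.0539 to 0.0942), and AT1G12800 missed in 3 of the 6 fits, while AT1G12250, AT1G13000 and AT1G13730 passed in all of them.

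The measured genes nearest to *KLU* varied from no signal to a clear difference. On the side of lower locus numbers, AT1G13680, AT1G13670 and AT1G13630 gave log2 values of at most 2.15 in both genotypes and tell nothing of expression. AT1G13650 is the called gene above, and AT1G13640, which encodes a phosphatidylinositol kinase family protein, had 6.74 ± 0.11 in *tink/ibr5-6* and 7.09 ± 0.15 in L*er* (n = 3 plants each, SD), a log2 fold change of -0.35 that did not pass (limma adjusted p = 0.104). On the side of higher locus numbers AT1G13730 comes first, with no protein-coding gene between it and *KLU* in the RefSeq table.

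The next measured gene after AT1G13730 is AT1G13750, a purple acid phosphatase that releases phosphate from organic compounds. It had 5.33 ± 0.20 in *tink/ibr5-6* and 5.02 ± 0.27 in L*er* (n = 3 plants each, SD). Its arrays overlapped, and its log2 fold change of 0.32 did not pass (limma adjusted p = 0.351). AT1G13760 was at the lowest signal on all arrays. AT1G13810 is the second called gene above, with 10 protein-coding genes between it and *KLU* in the RefSeq table. AT1G13830 stayed at or under 2.21 in both genotypes. Of the 10 measured genes nearest to *KLU*, 5 therefore had a signal above a log2 value of 3. Of these, 3 passed the adjusted p, all higher in *tink/ibr5-6*. Among all genes with a mean log2 value of 4 or more, 24.5% passed in either direction and 15.1% passed as higher. AT1G13650 reached that mean only through *tink/ibr5-6*, so that this comparison supports nothing by itself. With so few genes the count of 3 is a description only.

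**Figure D3:**
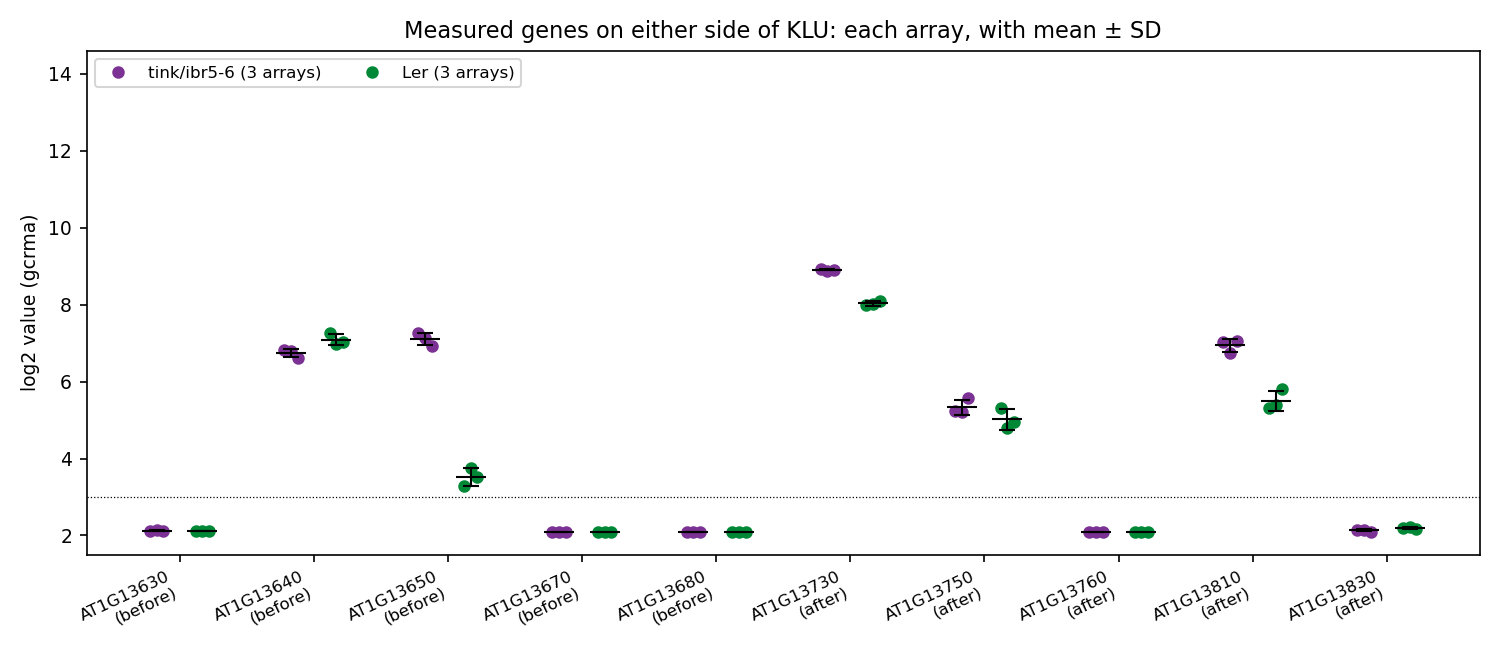
Log2 values of the 5 measured genes on each side of *KLU* on each array, *tink/ibr5-6* left of L*er*, with the mean and SD of 3 arrays and the dotted level of 3. AT1G13650, AT1G13730 and AT1G13810 are separated between genotypes, and 5 genes stay under 3 on all arrays.

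Along the segment the called genes were counted in 4 ranges of locus numbers, beside the 4.25% of all probe sets that were called. Between AT1G12000 and AT1G12490, 2 of 26 genes were called, both lower. Between AT1G12500 and AT1G12990 none of 21 was called by limma, although 4 (19.0%) passed the adjusted p alone, beside 16.3% of all probe sets. Between AT1G13000 and AT1G13490, 1 of 25 was called, again lower. The last range, AT1G13500 to AT1G13990, held 4 called genes of 21 and all 3 that were higher. Counted from *KLU*, 4 of the 81 genes before it were called (1 higher, 3 lower) and 3 of the 12 after it (2 higher, 1 lower). These counts are small, and the difference between these ranges was not tested.

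Set against the rest of the chromosome, the segment held more calls than most stretches of its size. The segment was chosen with earlier results of these data known, so this ranking is a description only. Of 3335 other genes of chromosome 1, 130 or 3.90% were called (44 higher, 86 lower), and 506 or 15.2% passed the adjusted p alone. These include AT1G12010, without which 129 of 3334 were called (43 higher). When chromosome 1 was cut into consecutive stretches of 93 measured genes, the 35 other stretches held 1 to 7 called genes, with a median of 3. None of them held more than the 7 of the segment and 2 held as many, from AT1G21560 to AT1G23210 and from AT1G55840 to AT1G59740. One direction at a time, 1 other stretch had more genes called higher than 3, and 4 had more called lower than 4. By the adjusted p alone, 6 other stretches exceeded the 18 genes of the segment, against a median of 15. The median log2 fold change was 0.00 in the segment and 0.00 in the rest of the chromosome. Genes under 3 on all arrays, 37.63% of the segment and 34.15% of the rest, hold this median near 0.00. It therefore cannot show whether the segment stands apart.

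Signal strength enters these shares, since a dim gene can hardly be called. Of the 93 genes, 35 lay under a log2 value of 3 on all 6 arrays, and 53 had a mean of at least 4. Among those 53, 6 were called, which is 11.3%, beside 5.71% of 1945 such genes on the rest of the chromosome and 5.83% of 7594 in all. This mean runs over both genotypes, and 3 of the 6, AT1G12070, AT1G13650 and AT1G13970, reached it only through the genotype in which they were high, so that the share supports nothing by itself. Their median log2 fold change was 0.09, beside 0.07 in both of these sets. The arrays of the genotypes did not overlap for 40 of the 93 genes, or 43.0%, beside 35.7% of all probe sets. Of these, 24 were higher in *tink/ibr5-6* and 16 lower, beside 21.3% and 14.4% of all probe sets in these directions.

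**Figure D4:**
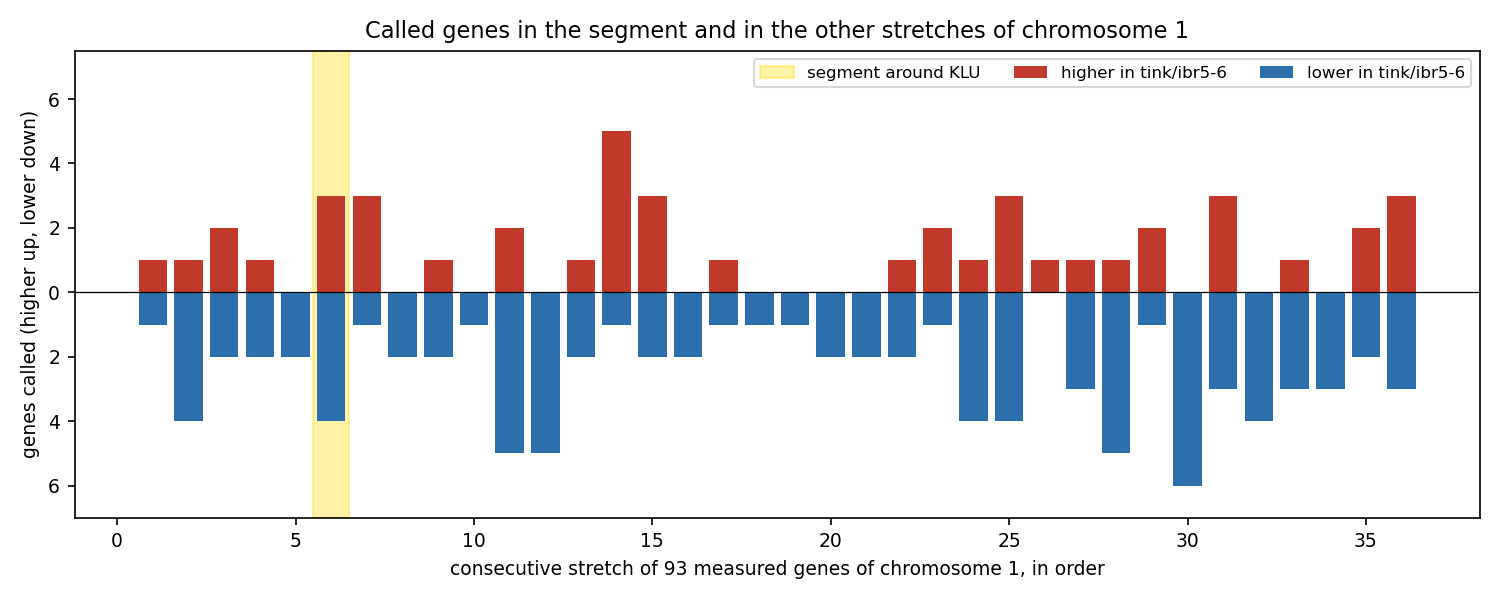
Number of genes called higher (upward) and lower (downward) in *tink/ibr5-6* against L*er* in consecutive stretches of 93 measured genes along chromosome 1, with the segment around *KLU* shaded. The segment holds 7 called genes, and the other 35 stretches hold 1 to 7.

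Genes were also grouped by what their products do. In the group of cytoskeleton and membrane traffic 5 of 9 listed genes were measured, and 2 were called lower, AT1G12070 and AT1G12150, beside 2.71% of all probe sets. The lists were chosen with earlier results of these data known, so this count is a description only. The others of this group did not pass, among them *KEU* (AT1G12360), the KEULE protein that lets vesicles fuse at the cell plate, with 9.32 ± 0.08 in *tink/ibr5-6* and 9.45 ± 0.06 in L*er* (n = 3 plants each, SD, limma adjusted p = 0.209). No gene was called in the other 9 groups, whose measured members numbered 1 to 8, beside 4.25% of all probe sets.

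Of 16 listed genes for growth and patterning, among which *KLU* belongs, 2 were measured. *NUB* (AT1G13400), whose zinc finger protein acts with JAGGED in the growth of stamens and carpels, had log2 values of 2.12, 3.21 and 2.36 in *tink/ibr5-6* and of 2.12, 2.11 and 2.11 in L*er*. Only *tink/ibr5-6* replicate 2 stood above the level of 3, and the gene did not pass (limma adjusted p = 0.455). *EXPA7* (AT1G12560), an expansin of root hairs, was at the lowest signal on all arrays.

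Of 13 listed monooxygenases, the class to which *KLU* belongs, 6 were measured and 4 of these were under the level of 3 on all arrays. The cytochrome P450 *CYP71B28* (AT1G13090) had 8.24 ± 0.07 in *tink/ibr5-6* and 7.94 ± 0.12 in L*er* (n = 3 plants each, SD, log2 fold change 0.30, limma adjusted p = 0.0714). The flavin monooxygenase *FMO* (AT1G12200) had 4.50 ± 0.09 in *tink/ibr5-6* and 4.86 ± 0.14 in L*er* (n = 3 plants each, SD, log2 fold change -0.36, limma adjusted p = 0.0697). In both genes the arrays of the genotypes did not overlap, and neither passed the adjusted p. These 2 were 33.3% of the 6 measured, beside 35.7% of all probe sets without overlap. With only probe sets of a mean of at least 4 fitted, both passed, at 0.034 for *CYP71B28* and 0.026 for *FMO* (limma adjusted p).

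In the group of translation and RNA, 8 of 15 listed genes were measured, and AT1G12800 was the 1 that passed the adjusted p. This is 12.5% of them, beside 16.3% of all probe sets. AT1G13030, which encodes coilin, the scaffold of Cajal bodies, had a log2 fold change of 0.52 (limma adjusted p = 0.053) and AT1G12650 had 0.21. In sugar and energy metabolism 3 of 10 were measured, and AT1G12230 was the 1 that passed (33.3%, beside 16.3% of all probe sets). In transport 3 of 6 were measured, with the brightest, AT1G12500, at 7.54 in *tink/ibr5-6* and 7.84 in L*er* (log2 fold change -0.30, limma adjusted p = 0.26), while *ACA.l* (AT1G13210) and the nitrate transporter *NRT2.5* were under the level of 3 on all arrays.

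Among 4 measured of 7 listed genes for chromatin and transcription, the trihelix factor *GT-1* (AT1G13450), which binds light-responsive promoters, and AT1G13880 each had a log2 fold change of -0.03, with limma adjusted p of 0.94 and 0.912. Among 3 measured of 8 phosphatases and kinases none passed, and AT1G13460, a regulatory B′ subunit of protein phosphatase 2A, had a log2 fold change of 0.08. *MAP1C* (AT1G13270), a methionine aminopeptidase of the chloroplast and the only measured gene of a list of 8 for hormone and light signalling, had 0.29 (limma adjusted p = 0.216). Of 7 genes listed as resistance proteins, 2 were measured and both were at the floor, AT1G12290, an NB-LRR gene, and AT1G12180.

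Several genes of the segment were measured closely enough to bound any difference. Among the 7 genes whose mean log2 value reached 10, the smallest fold changes were those of *GAPC2* (AT1G13440), AT1G12310 and AT1G12000. *GAPC2*, a cytosolic glyceraldehyde-3-phosphate dehydrogenase often used as a reference gene, had log2 values of 13.08, 13.03 and 13.02 in *tink/ibr5-6* and of 12.89, 13.10 and 13.01 in L*er*. Its arrays overlapped, and the 95% confidence interval of its log2 fold change ran from -0.12 to 0.20. For AT1G12310, an EF-hand calcium-binding protein, the interval ran from -0.17 to 0.25, and for AT1G12000, the beta subunit of a pyrophosphate-dependent phosphofructokinase, from -0.34 to 0.45. In all, 75 genes did not pass the adjusted p, and of the 40 of these with a signal above 3 on some array, 32 had an absolute log2 fold change under 0.5.

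AT1G12010, which the choice of members leaves out, is annotated as an ACC oxidase, an enzyme of ethylene synthesis. It had log2 values of 9.65, 10.51 and 10.63 in *tink/ibr5-6* and of 2.1, 2.24 and 2.24 in L*er*, at least 154-fold higher in *tink/ibr5-6* (limma adjusted p = 0.0017). With it, 8 of 94 genes between AT1G12000 and AT1G13990 were called.

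On each side of the segment the share of called genes was lower than within it (1.72% before and 6.0% after). Of 58 measured genes from AT1G11000 to AT1G11990, 1 was called, the serine carboxypeptidase-like gene *scpl31* (AT1G11080), with a log2 fold change of -3.35. Of 50 from AT1G14000 to AT1G14990, 3 were called: AT1G14060 with 1.14, the zinc finger gene AT1G14580 with 2.41, and *AT59* (AT1G14420), a pollen pectate lyase, with -4.97. The call of *AT59* was lost without *tink/ibr5-6* replicate 2 (adjusted p = 0.0502, limma). The difference in rate between the segment and its flanks was not tested.

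Other features of the samples moved with genotype across the arrays, and they stand beside the genes called lower. Of 28 listed pollen markers 9 were measured, 5 were called lower, beside 2.71% of all probe sets, and none higher by limma. The marker lists, too, were chosen with earlier results of these data known, so this count is a description only. Those called included *AtVEX1*, *PLIM2a* and *AT59*. Their summed level on the linear scale was 68.3 to 138 in *tink/ibr5-6* and 1645 to 2328 in L*er*, and 1 of the 9, AT2G21480, was under the level of 3 on all arrays. Of the 8 others, the mean deviation from the L*er* mean was -3.16, -3.59 and -4.04 in *tink/ibr5-6* replicates 1, 2 and 3. By this mean replicate 1 was the least low of the mutant plants, and by the summed level replicate 2 was. The part of pollen in the lower values of these genes was not tested, and since the stage of the buds is not given, a smaller share of late buds and less RNA per cell cannot be told apart.

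The tapetum, the cell layer that feeds developing pollen, was represented by 2 of 15 listed markers, neither called, with a summed linear level of 7192 to 8644 in *tink/ibr5-6* and 6063 to 6499 in L*er*. Of these, *AMS*, a transcription factor of tapetum development, was higher by 0.89 on the log2 scale (limma adjusted p = 0.0253). The 4 measured of 16 listed markers of floral meristem and organ identity, *CLV3*, *UFO*, *INO* and *RBE*, were all under a log2 value of 3 on every array, so that the floral tissue of the labels was checked only through anther markers. Of 18 genes listed for the *KLU* family and organ growth 5 were measured. *BPEp* (AT1G59640), whose protein limits petal cell expansion, was the 1 called, with log2 values of 8.33, 8.16 and 7.84 in *tink/ibr5-6* and of 9.24, 9.97 and 9.87 in L*er* (log2 fold change -1.58, limma adjusted p = 0.0252).

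Across all 22746 probe sets the array medians lay between 6.18 and 6.20, and the correlation of 2 arrays over probe sets (r) was 0.996 to 0.998 within a genotype and 0.972 to 0.985 between genotypes, where probe sets are not independent replicates.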

How the data were processed

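Total RNA from inflorescences of 6 plants was hybridised to ATH1 arrays, and the log2 values deposited by the authors came from gcrma (version not given in the sources used here), with 22810 probe sets per array. These log2 values were used without further scaling. After 64 control probe sets were left out, 22746 were tested. The platform annotation names 1 gene for 13513 of them, several for 503 and does not list 8730, and 13415 had a locus. RefSeq TAIR10.1 was used for names and gene order only, since the array files name no build.

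Genotypes were compared with limma 3.58.1 (lmFit and eBayes, no covariates) in R 4.3.3, with Benjamini-Hochberg adjustment over all probe sets and the thresholds of the methods. The prior had 0.401 degrees of freedom, so that each probe set had its spread estimated nearly from its own 6 values alone. Precision is limited by the number of arrays, and an exact permutation test of 3 against 3 cannot give a p under 0.1. When this comparison was simulated over 22746 probe sets, 70 of 100 changes of 1.5 and 97 of 100 of 3 (log2 scale) were found. Besides these, 1 other probe set was called. All changed probe sets had a mean of at least 4, so recovery of dim genes was not measured. Far fewer probe sets were changed than passed in the data, so the adjustment was not the same. Where all arrays of the dimmer genotype were under 3, the bound counts from that level to the mean of the brighter genotype. The replicate numbers were checked for pairing. Same-numbered plants did not deviate together, which with 3 plants per genotype cannot exclude a pairing.

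Members, the 10 lists of roles and the 4 marker lists were chosen with earlier results of these data known. The text names all called genes, the 6 largest changes that passed the adjusted p alone, 5 measured neighbours on each side of *KLU*, the 2 brightest of each role, 3 bright genes with the least change, AT1G13440, AT1G12010 and called genes of the flanks; AT1G13320 was not analysed here. Members beyond this rule (AT1G12230, AT1G12270, AT1G12810, AT1G12830, AT1G13030, *NRT2.5* and the marker genes) were named after their values were seen. Alternatives were quantile normalization or centring after gcrma, filters on the mean, array weights, the replicate block, a robust prior with a trend, other thresholds, ranges and probe sets, and leaving out each array. Tables and figures were made with pandas 2.3.3, numpy 2.4.6, matplotlib 3.10.9 and scipy 1.17.1 in Python 3.11.15.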

Additional observations from a re-analysis of the deposited data

How the results depend on the processing

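The 7 calls were the same genes under quantile normalization, centring on array medians, a trend and robust prior and array weights. Other choices of probe set could change nothing, since each gene of the segment had 1 probe set. Leaving out 1 array gave 4 to 6 called genes (4.30% to 6.45% of the segment), 2 to 3 higher, 2 to 3 lower, and a median log2 fold change of 0.0 to 0.0055. Without L*er* replicate 2 the count was 4, beside 2.46% of the rest of chromosome 1. AT1G12150, AT1G13650, AT1G13930 and AT1G13970 were called in all 6 of these fits. For AT1G12150 this is no sign of a firm call, since it read 2.17 on all 3 *tink/ibr5-6* arrays, under the level of 3. AT1G13810 was lost without *tink/ibr5-6* replicate 1 and without L*er* replicate 2, at an adjusted p of up to 0.0554. At an adjusted p under 0.01, 4 were called (4.30%, rest of the chromosome 1.35%), 2 of them lower. With no fold limit 18 passed (19.4%, rest 15.2%), 10 higher and 8 lower. With only probe sets of a mean of at least 4, the share was 11.3% (rest 6.74%) and the median 0.0913. Keeping the fit of all probe sets and counting these genes, an alternative chosen after seeing the data, gave 11.3% (rest 5.71%). In the fit of only these probe sets the limma adjusted p was 0.0045 for AT1G13130, 0.0016 for AT1G12070 and 6.04e-05 for AT1G13650. AT1G12070 and AT1G13650 reached that mean only through 1 genotype, and single arrays were not left out of that fit. With a mean of at least 6, 3 of 44 genes were called (6.82%, rest 4.92%), 1 of them lower, and the median was 0.0992. From AT1G13000 to AT1G13990, 5 of 46 genes were called (10.9%, rest 3.9%), 3 higher and 2 lower. From AT1G11000 to AT1G14990, 11 of 201 genes were called (5.47%, rest 3.9%), 5 higher and 6 lower.

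With the replicate number as a block, 2 genes were called, AT1G12150 and AT1G13930, 1 lower and 1 higher (2.15%, rest of the chromosome 0.51%). Same-numbered plants did not deviate together (r of -0.301, 0.0185 and -0.0508), beside r of -0.218 to 0.252 for plants of different numbers. With 3 plants per genotype this check cannot exclude a pairing, and the labels state none. The block left the log2 fold changes as they were and the fit with fewer residual degrees of freedom. AT1G13650, for example, kept 3.59 at an adjusted p of 0.0508 (limma). Why the count fell was not tested.

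Of 700 values of the 43 named genes under the alternatives, 658 kept their direction and their call or lack of one, 25 lost a call, 7 gained one (all with no fold limit), and 10 turned direction, in 5 genes with little difference. *GAPC2* (AT1G13440) was at -0.0388 after quantile normalization and AT1G12000 at -0.0214 with array weights. With 1 array left out, *GAPC2* lay between -0.0171 and 0.0884, AT1G12000 between -0.0579 and 0.145, AT1G12310 between -0.0240 and 0.0896, *GT-1* (AT1G13450) between -0.0727 and 0.0103 and AT1G13880 between -0.0626 and 0.0285, all as log2 fold changes. Dim signal limits the rest: differences in the 35 genes under a log2 value of 3 on all arrays were not detectable.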
